A study of Mus musculus with 6 samples.

Results

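The miRNAs described here are mmu-miR-143 and mmu-miR-145, which are made from one precursor transcript, and mmu-miR-199a-3p and mmu-miR-214, which share another, although miR-199a-3p also has other genes. They were chosen by their names, guide strands only, and are 4 of the 709 miRNA assays on a SYBR Green real-time PCR array. All 4 are among the 95 assays with a value in every sample. The cells were osteoclasts, myeloid cells that break down bone, sorted with magnetic beads from mouse bone marrow as OSCAR+CTR+ cells. The 3 OCmiR-Intact samples are control osteoclasts with intact osteoclast miRNA, and the 3 OCmiR-KD samples are osteoclasts from mice with osteoclast miRNA knocked down. The sources used here do not give the allele or agent behind the knockdown, the cell type that drives it, or the strain, age and sex of the mice. The series' design text describes pooling of RNA from 3 mice per group, although the labels list 3 separate samples in each. It is therefore unsettled whether a group's samples are mice or repeat measurements, and each p-value reflects nothing beyond the scatter among these 6 samples.

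MiRNAs are short RNAs that guide silencing proteins to messenger RNAs, mainly through the seed, bases 2 to 8. The cluster of miR-143 and miR-145 is best known from smooth muscle and connective tissue cells, where miR-145 represses the transcription factors Klf4 and Klf5. The cluster of miR-199a and miR-214 lies in the noncoding RNA Dnm3os and is a mesenchymal cluster controlled by Twist1. In bone, miR-214 is known to promote osteoclast formation and to restrain osteoblasts through Atf4, and miR-199a-3p is known to repress mTOR and Met.

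The sequences of the assays around miR-199a-3p and miR-214 are shown because 2 results turn on them. One is an assay with the same sequence as miR-199a-3p that gave no value. The other is an assay with a different sequence whose readings miR-199a-3p repeats. Sequences are those given for each assay, 5′ to 3′, with the seed in capitals, and each is also in RefSeq (GRCm38.p6):
mmu-miR-199a-3p: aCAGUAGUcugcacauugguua
mmu-miR-199b: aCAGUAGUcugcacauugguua
mmu-miR-214: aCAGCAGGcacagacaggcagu
mmu-miR-761: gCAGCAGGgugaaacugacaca
mmu-miR-24: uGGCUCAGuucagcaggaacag

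The assays miR-199a-3p and miR-199b share all 22 of 22 bases. miR-214 and miR-761 share the seed and 13 of 22 positions. miR-199a-3p and miR-24 have different seeds and the same base at 4 of 22 positions. The mature sequence of miR-199a-3p comes from 3 genes in RefSeq. These are Mir199a-2 (chr1:162217814-162217923, plus strand), Mir199a-1 (chr9:21496495-21496564, minus strand) and Mir199b (chr2:32318460-32318569, plus strand). A PCR assay of the mature sequence cannot tell these apart. Only Mir199a-2 lies beside Mir214 (chr1:162223368-162223477, plus strand), with 5444 bases between the hairpins. Both hairpins lie within the lncRNA gene Dnm3os (chr1:162217623-162225550). Their RefSeq hairpins are shown with the mature arms in capitals, since only the 3′ arm of each had values here:
Mir199a-2: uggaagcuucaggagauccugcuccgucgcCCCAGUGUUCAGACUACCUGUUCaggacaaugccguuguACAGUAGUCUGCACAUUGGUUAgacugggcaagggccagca
Mir214: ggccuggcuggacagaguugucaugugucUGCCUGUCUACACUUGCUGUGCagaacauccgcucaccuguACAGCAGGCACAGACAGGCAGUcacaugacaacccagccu

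Besides the 4 guide strands, 5 further assays cover other arms or a copy of these clusters, namely miR-145*, miR-199a-5p, miR-199b, miR-199b* and miR-214*. Of these 5, 0 had a value, and each was listed as Null in all 6 samples, as were 614 of the 709 assays on the array. The arrayed arms of miR-199a and miR-214 were thus measured on one side of the hairpin only.

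A value here is either a deposited threshold cycle (Ct, the PCR cycle at which fluorescence passes a set threshold, so a lower Ct stands for more template) or a level. The level is minus delta Ct, where delta Ct is the Ct of the assay minus that of the small nuclear RNA U6 in the same sample and plate. One log2 unit of level stands for 2-fold if the product doubles each cycle. All 4 miRNAs were on plate 1, where the mean Ct of U6 was 29.7 ± 0.547 in intact samples against 30.3 ± 0.906 in knockdown samples (SD of 3 samples), a delay of 0.608 cycles.

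One feature of the deposited values limits every difference given for these miRNAs. Taken as 2 to the power of the level, the 3 knockdown values of each of the 4 average 1 to within 0.001. The linear knockdown values of miR-143 were 1.117, 0.704 and 1.179. The other measured assays were also set against the U6 of plate 1, including the 10 on plate 2. On that reference the same holds for 88 of the 95 measured assays in knockdown samples and for 0 of 95 in intact samples. The knockdown mean of these miRNAs is therefore no separate measurement. "Lower" below describes the deposited knockdown values set against the deposited intact values.

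In intact osteoclasts miR-214 had Ct values of 21.2, 22.5 and 23.7 cycles in samples 1 to 3, and in knockdown osteoclasts Ct values of 30.6, 30.7 and 30.0. Its levels were 8.08, 7.06 and 6.63 log2 units in intact and 0.54, -0.16 and -0.61 in knockdown samples. Every intact sample lay above every knockdown sample, with 6.09 log2 units between the nearest values. Intact samples averaged 7.26 ± 0.75 and knockdown samples -0.08 ± 0.58 (SD of 3 samples). The difference was -7.33 log2 units (SE 0.59, 95% interval -8.72 to -5.95, limma adjusted p = 3.2e-05). In the authors' deposited table the fold of intact over knockdown was 161 for miR-214.

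For miR-199a-3p, from the same cluster, the levels were 4.97, 5.18 and 4.63 log2 units in intact and -0.23, -0.20 and 0.35 in knockdown samples. Its samples spread less than those of the other 3 miRNAs in both groups, and the groups did not overlap. The level went from 4.93 ± 0.28 to -0.03 ± 0.33 (SD, n = 3 each), a difference of -4.95 (SE 0.48, 95% interval -6.06 to -3.84, limma adjusted p = 3.9e-05). The fold in the authors' deposited table was 31.0 for miR-199a-3p.

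The readings of miR-199a-3p cannot be taken as separate from those of another assay. Its Ct values were 24.316, 24.390 and 25.713 (intact) and 31.348, 30.764 and 28.992 (knockdown), and miR-24, a miRNA of the miR-23/27/24 clusters in a different well, has the same Ct to the third decimal in all 6 samples. Among the 4465 pairs that the 95 measured assays form, this is the 1 pair with equal Ct in every sample. In any other pair at most 3 samples had equal Ct, and the closest other pair differed by up to 0.296 cycles. The sources used here do not tell to which assay the readings belong.

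The assay named miR-199b, whose listed sequence is letter for letter that of miR-199a-3p (both printed above), was Null in all 6 samples. The array holds 6 groups of assays with identical listed sequences, 16 assays in all. In 5 of the groups every assay was Null, so they cannot show how often twins both have values. In the remaining group, miR-199a-3p and miR-199b, one assay had values and its twin had none. Whether the values of miR-199a-3p stem from its own sequence was not tested. If the readings belong to miR-24, the comparison of miR-214 with miR-199a-3p below is one of miR-214 with miR-24.

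**Figure D1:**
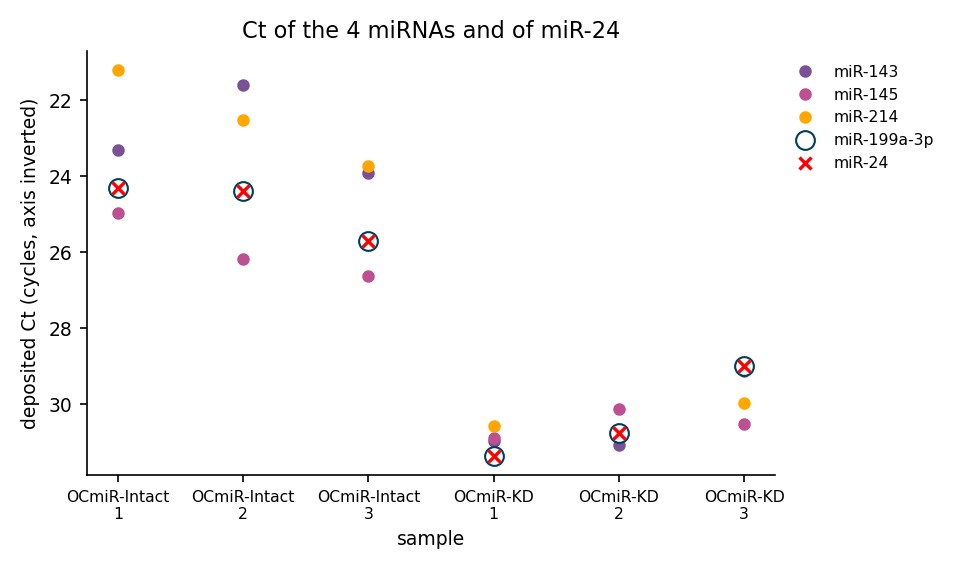
Deposited Ct (cycles, axis inverted so that more template is higher) in each of the 6 samples for the 4 miRNAs, with miR-24 as red crosses. The crosses of miR-24 sit inside the open circles of miR-199a-3p in all 6 samples, and the intact samples lie at lower Ct than the knockdown samples for every miRNA shown.

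In the other cluster, miR-143 had Ct values of 23.3, 21.6 and 23.9 (intact) and 31.0, 31.1 and 29.1 (knockdown). Its levels were 5.98, 7.97 and 6.43 log2 units in intact and 0.16, -0.51 and 0.24 in knockdown samples. Intact sample 2 stood 1.54 log2 units above the next intact sample, and the groups did not overlap. Intact samples averaged 6.79 ± 1.04 and knockdown samples -0.04 ± 0.41 (SD of 3 samples). The difference was -6.83 (SE 0.64, 95% interval -8.33 to -5.33, limma adjusted p = 3.9e-05), or -6.24 without intact sample 2. The fold in the authors' deposited table was 114 for miR-143.

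miR-145 had Ct values of 25.0, 26.2 and 26.6 (intact) and 30.9, 30.1 and 30.5 (knockdown). Its levels were 4.32, 3.40 and 3.73 log2 units in intact and 0.25, 0.46 and -1.17 in knockdown samples. Knockdown sample 3 lay lowest, and the groups stood 2.95 log2 units apart at their nearest values. Its mean was 3.82 ± 0.46 with miRNA intact and -0.16 ± 0.88 after knockdown (SD of 3 samples). This is the smallest difference of the 4, at -3.97 (SE 0.61, 95% interval -5.39 to -2.56, limma adjusted p = 0.00048). The fold in the authors' deposited table was 15.7 for miR-145.

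All 4 miRNAs passed the threshold in the lower direction, as did 84.2% of all 95 assays tested (80 of 95), so their count stands near that of the whole array. Likewise the groups did not overlap, with knockdown lower, for 4 of 4, against 82.1% of all measured assays (78 of 95). The median difference was -5.89 over the 4 miRNAs and -4.54 over all 95 assays. By size of the fall, miR-214 ranked 9 of 95, miR-143 ranked 14, miR-199a-3p ranked 40 and miR-145 ranked 60. Their ranks by lowest intact Ct were 8, 14, 35 and 59, nearly the same order. With the linear knockdown means at 1, a difference of means is close to minus the intact level, and the 4 miRNAs lie along that line.

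**Figure D2:**
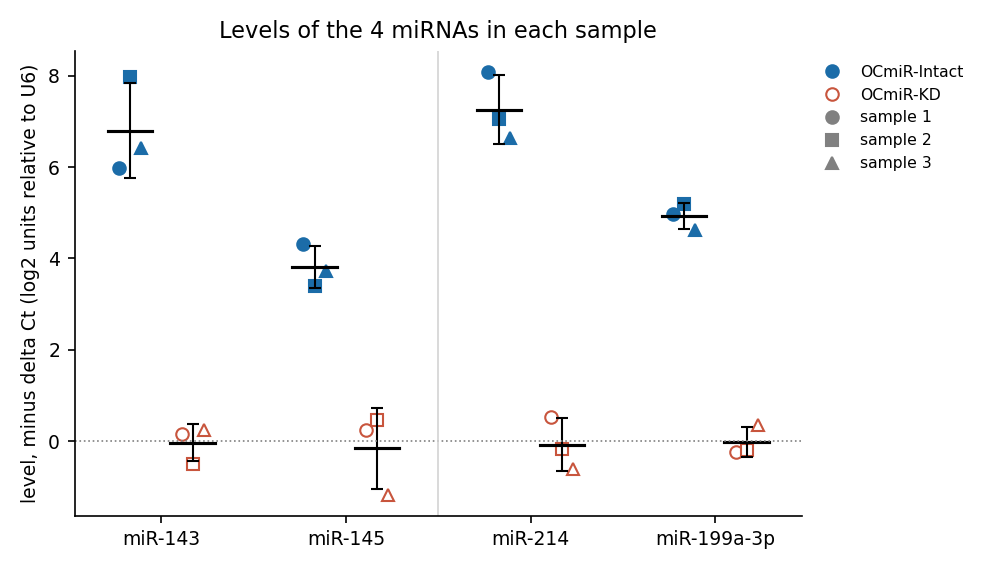
Level (minus delta Ct, log2 units relative to U6) of the 4 miRNAs in each sample, with filled symbols for OCmiR-Intact, open symbols for OCmiR-KD, and the mean ± SD of 3 samples as black lines. Intact levels run from 3.40 (miR-145, sample 2) to 8.08 (miR-214, sample 1), while all knockdown levels lie between -1.17 and 0.54.

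**Figure D3:**
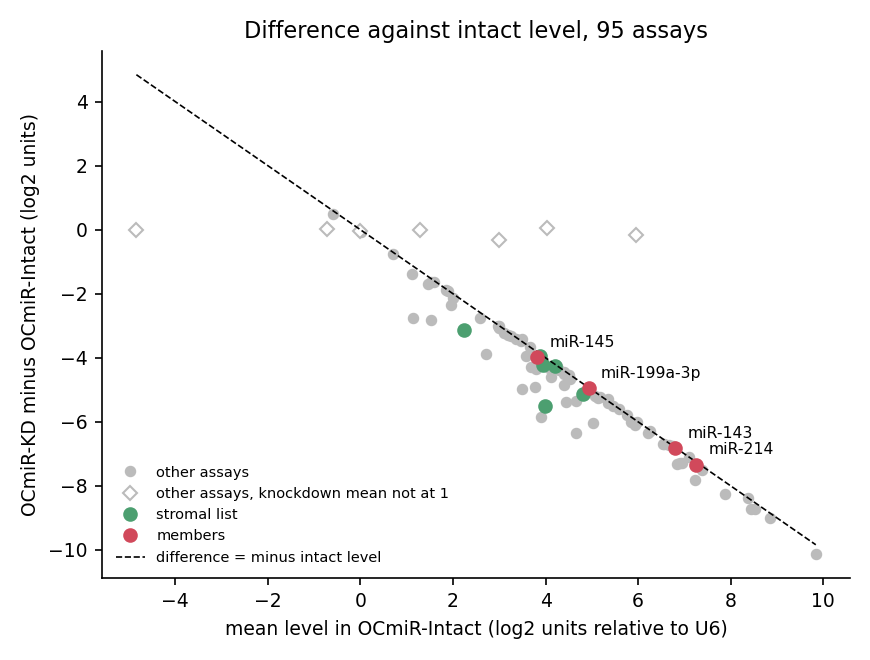
Difference of OCmiR-KD minus OCmiR-Intact (log2 units) against the mean intact level (log2 units relative to U6) for the 95 measured assays, members in red and other measured miRNAs of the stromal list in green. The dashed line is minus the intact level, and the 4 members lie along it. The 7 open diamonds are assays whose linear knockdown mean, against the U6 of plate 1, is not at 1.

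Within intact osteoclasts the levels ran from miR-214 to miR-143, miR-199a-3p and miR-145. The intact samples of miR-214 and miR-143 overlapped, so these neighbours did not differ beyond their spread. Those of miR-143 and miR-199a-3p did not overlap, nor did those of miR-199a-3p and miR-145, although the lowest value of the first lay only 0.312 log2 units above the highest of the second. Because each assay has its own primer, this is an order of readings and not of abundance. The samples did not order the miRNAs alike. In intact cells sample 1 was highest for miR-214 and miR-145, and sample 2 was highest for miR-143 and miR-199a-3p. miR-145 was lowest in intact sample 2, the sample in which its cluster partner miR-143 was highest.

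The pairs raise the question whether 2 miRNAs of one cluster differ between the groups by the same amount. For miR-199a-3p, how much of the reading stems from the gene beside Mir214 and how much from its other genes cannot be told apart. It was put as the difference of their levels within each sample, from which U6 cancels since both are on 1 plate. For miR-143 minus miR-145 this was 1.66, 4.56 and 2.70 log2 units in intact samples and -0.09, -0.96 and 1.41 in knockdown samples. miR-143 read higher than miR-145 in 3 of 3 intact samples and in 1 of 3 knockdown samples. The mean went from 2.97 ± 1.47 to 0.12 ± 1.20 (SD, n = 3 each), so miR-143 was lower by 2.85 log2 units more than miR-145 (p = 0.1 by a two-sided exact permutation test, which with 3 against 3 samples cannot give less). The groups stood apart by 0.258 log2 units at their nearest values. The difference was -2.06 without intact sample 2, -3.51 without intact sample 1 and -3.50 without knockdown sample 3.

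For miR-214 minus miR-199a-3p the differences were 3.11, 1.88 and 2.00 log2 units in intact samples and 0.77, 0.04 and -0.97 in knockdown samples. The mean went from 2.33 ± 0.68 to -0.05 ± 0.87 (SD, n = 3 each), a change of -2.38 log2 units (p = 0.1 by the same exact permutation test). The intact and knockdown samples did not overlap. In both clusters the miRNA with the higher intact level also had the larger fall. Since both partners have a linear knockdown mean of 1, the change within a pair is set almost wholly by the intact samples, and it does not show that the 2 miRNAs responded differently.

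**Figure D4:**
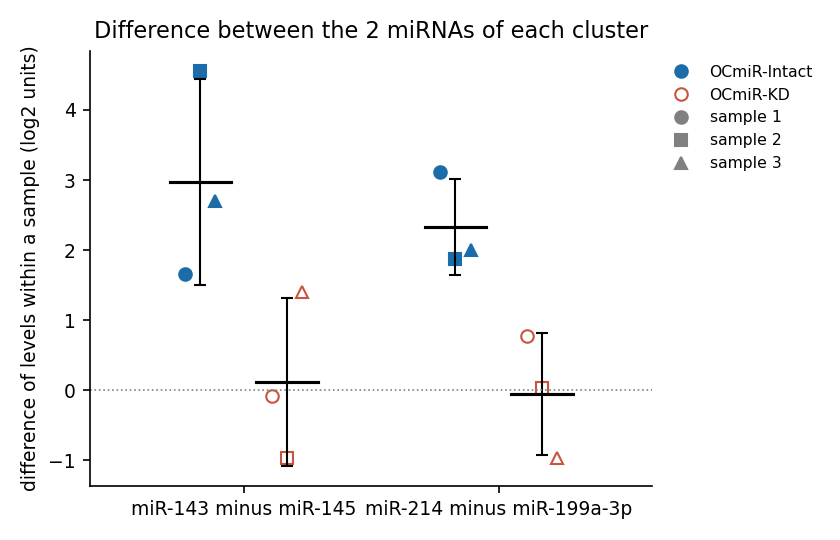
Difference of levels (log2 units) between the 2 miRNAs of each cluster within each sample, filled for OCmiR-Intact and open for OCmiR-KD, with the mean ± SD of 3 samples. The intact samples lie between 1.66 and 4.56 for miR-143 minus miR-145 and between 1.88 and 3.11 for miR-214 minus miR-199a-3p, and the knockdown samples lie lower, on both sides of 0.

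U6 is not the only possible reference. Each sample was also centred on the mean Ct of the 95 measured assays, which takes away a mean change of -5.09 on the minus Ct scale. A value then says how a miRNA stood against the other miRNAs. On that scale miR-214 was lower by -2.85 log2 units (SE 0.58, limma adjusted p = 0.0067) and miR-143 by -2.35 (SE 0.66, limma adjusted p = 0.025). These were 2 of 4 members, against 20.0% of all assays (19 of 95) below the mean change. miR-199a-3p was at -0.47 (95% interval -1.58 to 0.64), and miR-145 turned to 0.51 (95% interval -0.91 to 1.93), neither of which passed. In each cluster 1 miRNA thus passed and its partner did not. Since the linear knockdown means of the 4 are at 1, a centred difference also follows minus the intact level, apart from a shift common to all assays. These calls therefore mostly restate which miRNAs had the higher intact level. They do not show that the partners responded differently. The difference between partners is the same as above on this scale, where its exact p was 0.1. After quantile normalization 0 of the 4 passed and 2 had an unadjusted p under 0.05, with limma adjusted p of 0.17 for miR-143 and 0.16 for miR-214, while 4 of the 95 assays were lower and 8 higher. At an unadjusted p under 0.05 there were 24 assays in that setting, against 12 after adjustment.

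**Figure D5:**
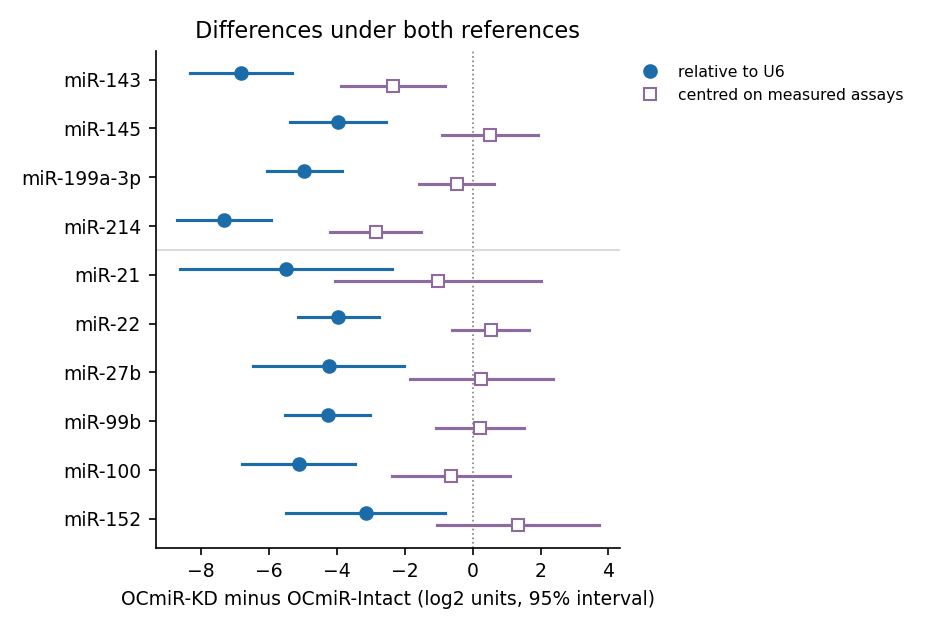
Difference of OCmiR-KD minus OCmiR-Intact (log2 units) with its 95% interval from limma, relative to U6 (filled circles) and centred on the measured assays (open squares), for the 4 members above the grey line and 6 other measured stromal miRNAs under it. Relative to U6 every interval lies below 0, whereas after centring only those of miR-214 and miR-143 do.

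A list of 27 further miRNAs known from stromal and osteoblast-lineage cells was set beside the 4. Of these, 6 had values, namely miR-21, miR-22, miR-27b, miR-99b, miR-100 and miR-152. The other 21 were Null in all samples. Over the whole array 95 of 709 assays (13.4%) had values. Relative to U6, 6 of 6 were lower in knockdown samples (84.2% over all assays), with a median difference of -4.25. The median intact level was 3.96 log2 units for these 6, 5.86 for the 4 cluster miRNAs and 4.255 for all 95 measured assays. Centred on the measured assays, 0 of 6 passed in limma, against 38 of all 95 assays (19 lower, 19 higher). At an unadjusted p under 0.05 the counts were 0 of 6 and 45 of 95, and the median of the 6 was 0.23.

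Among the 6, miR-100, of a family that includes miR-99b and restrains mTOR, had intact levels closest to those of miR-199a-3p. Its level went from 4.80 ± 0.46 to -0.33 ± 1.28 (SD, n = 3 each), a difference of -5.13 (SE 0.72), or -4.44 without knockdown sample 3. miR-99b, of the same family, differed by -4.27 (SE 0.53), and miR-22 by -3.95 (SE 0.51). miR-27b, of the miR-23/27/24 clusters, differed by -4.24 (SE 0.95), and by -5.19 without intact sample 2 or -4.83 without knockdown sample 3. Its intact level of 3.94 ± 1.66 (SD, n = 3) spread more than that of any of the 4 cluster miRNAs.

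miR-21, which represses Pdcd4 and is also made by myeloid cells, went from 3.99 ± 1.57 to -1.51 ± 2.58 (SD, n = 3 each), a difference of -5.50 (SE 1.34). Leaving out 1 sample gave between -4.63 (without knockdown sample 2) and -6.98 (without knockdown sample 3). It was -4.88 without knockdown sample 1 and -6.39 without intact sample 3. miR-152, of the miR-148 family, had the smallest difference, -3.15 (SE 1.01, limma adjusted p = 0.019). It was -4.21 without knockdown sample 2, -2.05 without knockdown sample 3, and did not pass without intact sample 3 (limma adjusted p = 0.069). Its intact samples 2 and 3 hold equal levels. It is 1 of 9 assays with equal levels in samples of one group, and 0 of the 4 cluster miRNAs are among them.

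The patterns most like those of the 4 were found by the root mean square difference in level over the 6 samples, which is small where both the intact level and the spread are alike. For miR-143 they were let-7g (0.66 log2 units) and let-7b (0.82), and for miR-214 let-7g (0.46) and miR-342-3p (0.65). For miR-145 they were miR-375 (0.37) and miR-423-5p (0.47). For miR-199a-3p they were miR-24 (0.00, the repeated readings) and miR-320 (0.41). Cluster partners were thus not each other's nearest assays in either cluster. Partners differed in mean intact level by 2.97 and 2.33 log2 units, which this measure counts. It therefore does not tell whether partners varied together.

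The sorted cells also gave readings for miRNAs of other cell types. Of the myeloid list 4 of 7 had values, miR-223, miR-142-5p, miR-342-3p and miR-21, and miR-142-3p, miR-146a and miR-155 were Null. miR-223, a defining myeloid miRNA, had an intact level of 5.46 ± 0.54 (SD, n = 3), between those of miR-143 and miR-199a-3p. Summed on the linear scale, the myeloid list ran from 171 to 351 times U6 over the intact samples and from 1.96 to 8.02 over the knockdown samples. For the 4 cluster miRNAs the sum ran from 223 to 430 in intact and from 3.55 to 4.61 in knockdown samples. The epithelial list had values in 4 of 7 assays, the lymphoid in 3 of 5, the erythroid in 3 of 3, the muscle in 2 of 4, the endothelial in 1 of 2 and the liver list in 1 of 1. Among all 709 assays the share with values was 13.4%. Epithelial sums ran from 1135 to 1776 times U6 in intact and from 3.14 to 5.26 in knockdown samples. Each assay in these sums has a linear knockdown mean of 1. The knockdown sums given here, each over 4 assays, therefore average about 4, the number of assays summed, and are no separate measurement. The sums also add readings of assays with their own primers, so they are not abundances. The part of other cell types in the readings of the stromal clusters was not tested. Fewer cells of a type and less RNA per cell cannot be told apart in such samples.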

How the data were processed

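Osteoclast total RNA was reverse transcribed with the QuantiMir kit and measured by SYBR Green real-time PCR over 40 cycles, per the labels' protocols. The authors deposited Ct values, delta Ct values against the U6 of each plate, which are on a log2 scale, and a fold of intact over knockdown per assay; replicates were not averaged in the first 2 tables. The sources used here do not say how Null was assigned or how the knockdown mean came to 1. The deposited folds equal the ratio recomputed from delta Ct to between 0.99958 and 1.00045. Counts of molecules and depth do not apply to Ct; the number of samples limits the precision.

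Levels (minus delta Ct) of the 95 assays with a Ct under 35 in at least 3 samples were compared between 3 and 3 samples with limma 3.58.1 in R 4.3.3 (lmFit, eBayes), without a replicate block. P-values were adjusted over all 95 assays by Benjamini-Hochberg, with a threshold of 0.05. Differences within a cluster were tested by exact permutation of the samples. The fit was tested on simulated data with independent noise and no fixed knockdown mean. That test therefore does not cover the fixed knockdown means of the deposited values. Alternatives were the reference (assay mean, quantile normalization, mean U6, none), the Ct limit (none, 32), the variance trend, leaving out the assay that repeats another, the replicate block and leaving out each sample.

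The miRNAs and lists were chosen with earlier results of these data known. Named are the 4 miRNAs, other arms of their clusters, miR-24, the 2 nearest assays of each, the measured stromal list and miR-223; miR-761, shown for its seed, and the myeloid miRNAs were added after their values were seen. Sequences are from the deposited table and RefSeq (GRCm38.p6); those of miR-199a-3p and miR-214, 2 of the 4, were matched.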

Additional observations from a re-analysis of the deposited data

How the results depend on the processing

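Relative to U6, all 4 miRNAs stayed lower and past the threshold when the U6 of both plates was averaged, with no Ct limit or a limit of 32, with a variance trend, without the assay that repeats another, on raw Ct without a reference (chosen after seeing the data), and without any 1 sample. With no Ct limit the 95 assays tested were the same, so this repeats the chosen settings, and the limit of 32 left 94. All of these alternatives rest on the deposited knockdown values, whose linear means relative to U6 are 1, and cannot test those values. Assays called were 80 with the chosen settings and 75 to 81 without 1 sample. Replacing U6 changed more: 38 assays were called after centring on the measured assays (19 lower, 19 higher) and 12 after quantile normalization (4 lower, 8 higher). For miR-145 the difference turned to 0.51 after centring and 0.64 after quantile normalization. For miR-199a-3p it was -0.47 and -0.39, for miR-143 -1.53 and for miR-214 -1.85 after quantile normalization, none of which passed. The stromal list, with these alternatives chosen after seeing the data, had 0 of 6 called under both, with a median of 0.23 after centring and 0.032 after quantile normalization. The cause of these changes was not tested. Without 1 sample the difference ranged from -3.51 to -2.06 for miR-143 minus miR-145 and from -2.79 to -1.92 for miR-214 minus miR-199a-3p. After quantile normalization these differences were smaller, at -2.16 and -1.46 log2 units in the same order. Their p by the exact permutation test was then 0.2 and 0.3, above the smallest possible 0.1.

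With the replicate block 82 assays were called, against 80, and the 4 miRNAs kept their calls. The differences within clusters kept their values. Their p was 0.25 by an exact test that flips the signs of the 3 same-numbered differences, which cannot give less. Deviations of same-numbered samples correlated at 0.025, 0.10 and 0.081. Since not every pair was over 0.1 and the labels name nothing shared, the numbers were not taken as pairs. As a hint from the data, 5 of 6 samples correlated best with their own number. The smallest p of 3 against 3 is 0.1.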
